A study of Rattus norvegicus with 24 samples.

Results

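The miR-181 family was followed through the PVN (the paraventricular nucleus of the hypothalamus) and the CEA (the central nucleus of the amygdala) of male Sprague-Dawley rats. Its 7 members here, rno-miR-181a-5p, rno-miR-181b-5p, rno-miR-181c-5p, rno-miR-181d-5p, rno-miR-181a-1-3p, rno-miR-181a-2-3p and rno-miR-181c-3p (written below without the prefix for rat), were selected on their names, and all 7 were found among the 1098 miRNAs counted. The family was put forward with its counts by nucleus and treatment already in view. Levels and differences of the members are therefore given as a description with their spread, and no p is given for a member. The rule holds no threshold, so no miRNA lies just inside or just outside it, and 3 further rows named miR-181 are treated separately.

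The rats, bought at 7 weeks of age, fell into 4 treatments, each with 3 small RNA libraries per nucleus and 24 libraries in all. NC rats had no operation, HT rats had part of the left liver lobe removed under isoflurane, HT + EA rats also had electroacupuncture at the ST 36 and SP 6 points before and after the operation, and HT + SEA rats had the same needles without current. Tissue was taken a day after the last session. All 4 treatments, NC included, shared the restraint used for the needle sessions. The labels name the tissue only as brain, with the nucleus in the sample title, and 12 rats, 3 to a treatment, are named in the methods. Which animal gave which library, and whether PVN and CEA libraries share animals, is not given in the sources used here, so standard errors cover only the spread between these libraries.

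MicroRNAs are short RNAs cut from hairpin precursors and loaded into Argonaute proteins, where bases 2 to 8 of the miRNA, the seed, pair with target mRNAs and lower their translation and stability. Each hairpin can give a 5p and a 3p arm, and usually 1 of them is kept in excess. The miR-181 family is abundant in brain and in lymphocytes. In T cells miR-181a sets the strength of antigen receptor signalling, and in neurons it has been found to repress the GluA2 subunit of AMPA receptors. The PVN is the neuroendocrine nucleus that holds the CRH neurons at the head of the stress axis, and the CEA is the output nucleus of the amygdala in fear and stress responses.

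The 5p arms are shown first because they carry the family's common seed, set in capitals, and because they differ only behind it (RefSeq, GRCr8).
miR-181a-5p: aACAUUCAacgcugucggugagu
miR-181b-5p: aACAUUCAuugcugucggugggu
miR-181c-5p: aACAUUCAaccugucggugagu
miR-181d-5p: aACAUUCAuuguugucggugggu
Of 693 mature rat sequences in that table, only these 4 held the seed. Positions counted from 1 at the 5′ end, miR-181b-5p differs from miR-181a-5p by A9U, C10U and A21G, and miR-181d-5p differs from miR-181b-5p by C12U alone. The miR-181c-5p sequence is 22 bases long against 23 for the others and is 1 edit away from miR-181a-5p.

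The 3p arms are shown because they tell the precursors apart, which the 5p arm of miR-181a cannot. Their seeds are again in capitals.
miR-181a-1-3p: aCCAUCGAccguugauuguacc
miR-181a-2-3p: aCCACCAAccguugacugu
miR-181c-3p: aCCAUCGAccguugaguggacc
The 3p arms of miR-181a-1 and miR-181c shared the seed CCAUCGA, which no other sequence of the table held, and differ by U16G and U19G. The seed of miR-181a-2-3p, CCACCAA, was found in that miRNA alone.

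The 6 precursors of the family lie in 3 neighbouring pairs. On chromosome 13, Mir181a-1 and Mir181b1 are separated by 61 bases, and Mir181a-1 overlaps the gene LOC108352541 on the same strand. The pair holds miR-181a-5p at chr13:52037081-52037103, miR-181a-1-3p at chr13:52037121-52037142 and miR-181b-5p at chr13:52037263-52037285 (GRCr8, plus strand). Overlap with other genes was looked up only for the first-named precursor of each pair. On chromosome 3, Mir181a2 and Mir181b2 are 986 bases apart. Mir181a2 overlaps LOC120101539 and Nr6a1, a nuclear receptor gene that runs on the opposite strand. The pair holds a second copy of miR-181a-5p at chr3:43025601-43025623 and miR-181a-2-3p at chr3:43025646-43025664 (GRCr8, plus strand). On chromosome 19, Mir181c and Mir181d are 77 bases apart, and Mir181c overlaps no other annotated gene. The pair holds miR-181c-5p at chr19:40888314-40888335, miR-181c-3p at chr19:40888353-40888374 and miR-181d-5p at chr19:40888484-40888506 (GRCr8, plus strand). These positions come from RefSeq, since the deposited table gives names only.

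One further miRNA has to be set beside miR-181a-1-3p. The annotated miR-3570 lies on the minus strand at the same bases of chromosome 13 (chr13:52037121-52037142), and its sequence is the exact reverse complement of miR-181a-1-3p.
miR-3570: gguacaaucaacggucgauggu
Counts of the 2 rows were equal in 14 of 24 libraries and never differed by more than 4 reads. They are treated as 1 measurement, and from the table alone the strand of these reads cannot be told. This comparison was added after the data were seen. For the other members the nearest row differed by at least 32.0% in some library.

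Library totals ran from 6584345 to 14913564 reads, and 3 reads, taken as the least that shows a miRNA, equal 0.201 to 0.456 CPM (counts per 1000000 counts of the library). This floor covers counting error only. The PVN NC and PVN HT libraries were shallower, at 6584345 to 11050725 reads, than those of PVN HT + EA and PVN HT + SEA, at 12134529 to 14828269. No 2 libraries were identical. The lowest median correlation with the other libraries of its nucleus was 0.987 in the CEA, that of CEA HT replicate 1, and 0.986 in the PVN, that of PVN HT replicate 3. The first of these also held the lowest count share of 6 of the 7 members among CEA libraries, and the nucleus differences, the CEA comparisons with HT and the correlations in the CEA are also given without it, a step added after the data were seen.

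In level, miR-181a-5p led the family in both nuclei. Over the 24 libraries it averaged 5524 CPM, rank 33 of 1098, followed by miR-181b-5p at 1603 CPM (rank 66) and miR-181d-5p at 673 CPM (rank 105). The 3p arm miR-181a-1-3p came next at 395 CPM (rank 138), well above miR-181c-3p at 57.8 CPM and miR-181c-5p at 50.6 CPM. The least abundant member, miR-181a-2-3p, averaged 10.2 CPM (rank 365) with 54 to 248 reads per library. CPM values were not divided by length, since a read covers the whole mature miRNA, and sequences can differ in how well they ligate.

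The order of the levels was not the same in the 2 nuclei. In the PVN, miR-181b-5p (803 to 1309 CPM) and miR-181d-5p (799 to 1112 CPM) overlapped next after miR-181a-5p, and miR-181a-1-3p lay below both at 206 to 334 CPM. In the CEA, miR-181b-5p stood alone in second place at 1427 to 2738 CPM, while miR-181a-1-3p (290 to 698 CPM) and miR-181d-5p (267 to 497 CPM) overlapped below it. The arms of miR-181c overlapped each other in both nuclei, at 60.9 to 78.2 CPM for the 3p and 60.9 to 77.3 CPM for the 5p arm in the PVN.

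**Figure D1:**
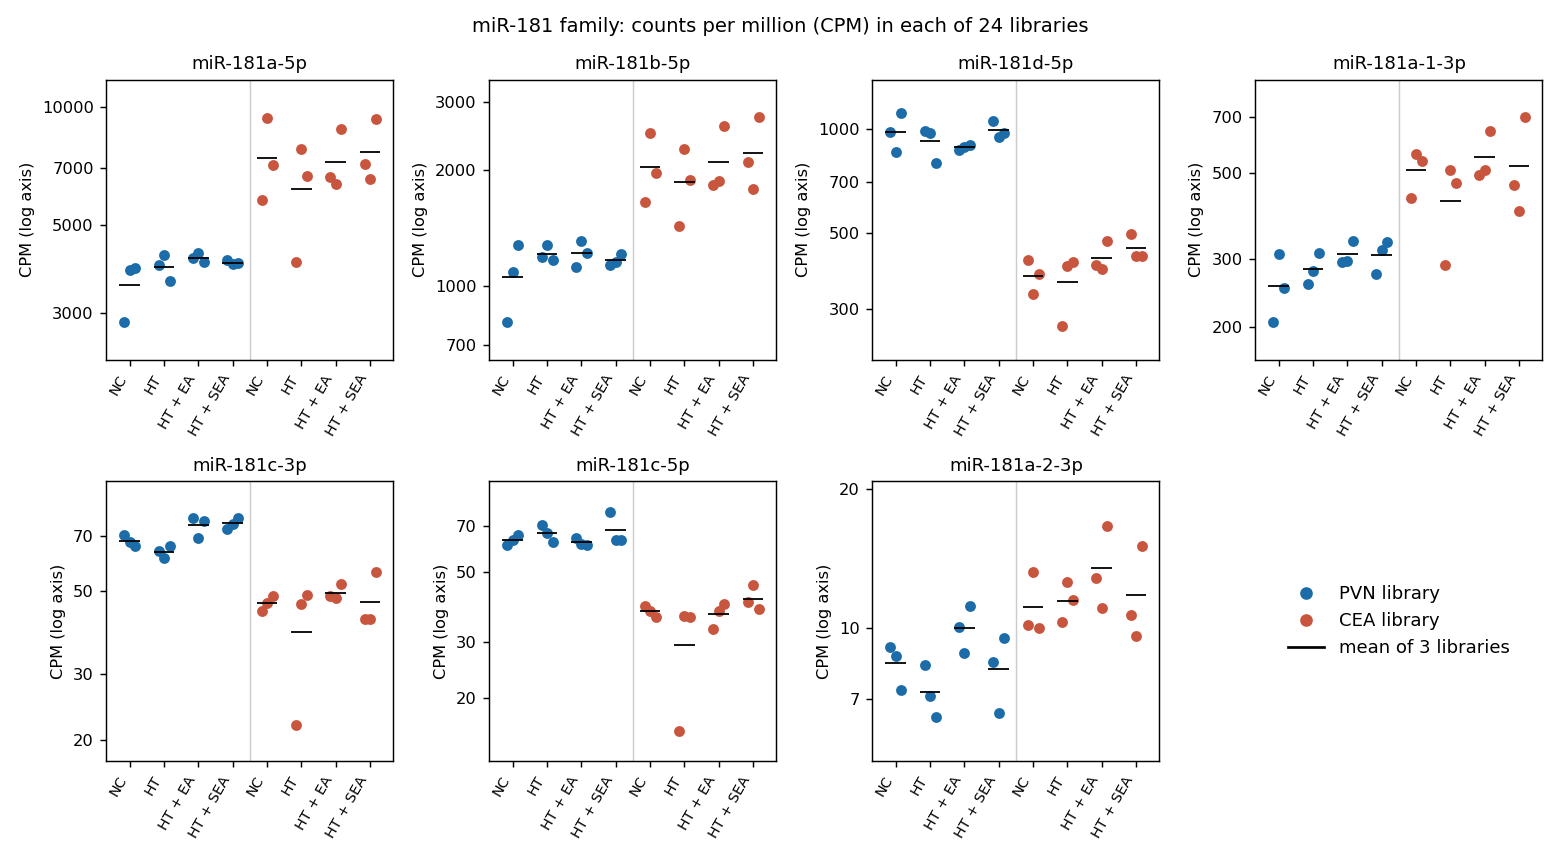
Level of each member in CPM on a log axis, with a point per library, a line at the mean of 3 libraries, PVN in blue and CEA in red. Members from the chromosome 13 and 3 precursors sit higher in the CEA and the 3 from chromosome 19 higher in the PVN, and CEA HT replicate 1 is the lowest red point in all panels but that of miR-181a-2-3p, with miR-181c-5p at 15.7 CPM.

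The nuclei differed in opposite directions for different members. The 4 members made from the miR-181a and miR-181b precursors were lower in the PVN than in the CEA, and the 3 made from the miR-181c and miR-181d precursors were higher. In a quasi-likelihood fit (edgeR) over the 24 libraries, with treatment as covariate, all 7 passed the threshold of 0.05 on the p adjusted by Benjamini-Hochberg over all miRNAs, 3 higher and 4 lower in the PVN. Over all 1098 miRNAs the same rule called 20.1% higher and 19.8% lower. Since the counts by nucleus were in view when the family was chosen, nothing is read from that count. The size of the log2 fold change had a median of 0.83 over the members, 0.58 over all miRNAs and 0.40 over the 366 miRNAs of at least 10 CPM.

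The most abundant member, miR-181a-5p, ranged from 2844 to 4248 CPM in the 12 PVN libraries with a median of 3990, and from 4037 to 9401 CPM in the 12 CEA libraries with a median of 6912. Only CEA HT replicate 1, at 4037 CPM, fell within the PVN range, and the next CEA library stood at 5797 CPM. Means stood at 3903 ± 373 and 7145 ± 1535 CPM (SD, n = 12). In the PVN against the CEA this made a log2 fold change, with its standard error, of -0.91 ± 0.0859.

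Its neighbour in both of the a and b pairs, miR-181b-5p, ranged from 803 to 1309 CPM in the PVN with a median of 1177, and from 1427 to 2738 CPM in the CEA with a median of 1923. The nuclei did not overlap. Means of 1160 ± 132 and 2046 ± 399 CPM (SD, n = 12) gave a log2 fold change of -0.86 ± 0.0847. The miR-181a-5p to miR-181b-5p read ratio was nearly alike in the nuclei, 3.38 ± 0.200 in the PVN and 3.48 ± 0.242 in the CEA, with overlapping ranges of 3.05 to 3.69 and 2.83 to 3.78.

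The 3p arms of miR-181a had the direction of the 5p arm. For miR-181a-1-3p, the arm specific to the chromosome 13 precursor, PVN libraries lay at 206 to 334 CPM (median 296) and CEA libraries at 290 to 698 CPM (median 502). Again CEA HT replicate 1, at 290 CPM, was the only CEA library inside the PVN range, and the next lowest was at 398 CPM. The log2 fold change was -0.83 ± 0.0881. The arm specific to the chromosome 3 precursor, miR-181a-2-3p, lay at 6.43 to 11.2 CPM (median 8.57) in the PVN and 9.63 to 16.6 CPM (median 11.3) in the CEA, with a log2 fold change of -0.55 ± 0.109. Its nuclei overlapped with or without CEA HT replicate 1.

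On chromosome 19 the direction was the other way. The largest nucleus difference of the family was that of miR-181d-5p, with PVN libraries at 799 to 1112 CPM (median 960.3) and CEA libraries at 267 to 497 CPM (median 407.5). The lowest PVN library was above the highest CEA library. Means of 945 ± 88.2 and 402 ± 59.9 CPM (SD, n = 12) made a ratio of 2.35 and a log2 fold change of 1.197 ± 0.0697.

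Both arms of miR-181c were also higher in the PVN, without overlap between the nuclei. The 5p arm lay at 60.9 to 77.3 CPM in the PVN and 15.7 to 45.3 CPM in the CEA, with means of 64.9 ± 4.77 and 36.2 ± 7.12 CPM (SD, n = 12) and a log2 fold change of 0.81 ± 0.0899. The 3p arm lay at 60.9 to 78.2 CPM in the PVN and 21.9 to 56.0 CPM in the CEA, with a log2 fold change of 0.60 ± 0.0827. Without CEA HT replicate 1 the lowest CEA values were 32.9 CPM for the 5p and 42.1 CPM for the 3p arm.

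In all, 4 of the 7 members did not overlap between the nuclei, where 11.6% of all miRNAs did not. Leaving out CEA HT replicate 1 made it 6 of the 7, where 13.0% of all miRNAs did not overlap. The log2 fold changes of the a and b members then ran from -0.99 to -0.57 and those of the c and d members from 0.51 to 1.13.

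**Figure D2:**
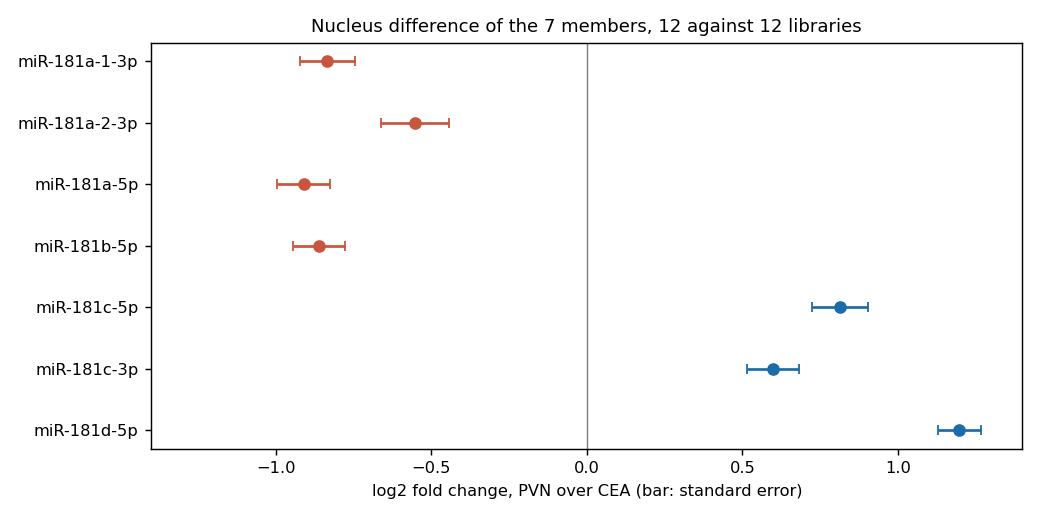
Log2 fold change of each member in the PVN over the CEA, with its standard error as a bar, from the fit over 12 and 12 libraries, in red where lower and in blue where higher in the PVN. The points of the a and b members lie between -0.91 and -0.55 and those of the c and d members between 0.60 and 1.197, so that the direction divides by chromosome.

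The nucleus difference had the same direction within each of the 4 treatments. For miR-181d-5p the PVN mean was 2.09 to 2.62 times the CEA mean, and for miR-181c-5p 1.65 to 2.26 times. For miR-181a-5p the CEA mean was 1.57 to 2.11 times the PVN mean, and for miR-181b-5p 1.54 to 1.93 times. For both, the smallest ratio was that of the HT libraries, as was the largest for miR-181c-5p. Without CEA HT replicate 1 the HT ratios were 1.85 for miR-181a-5p, 1.72 for miR-181b-5p and 1.84 for miR-181c-5p. With 3 libraries on each side, 7 members did not overlap between the nuclei in the NC and in the HT + SEA rats, 6 in the HT + EA rats and 5 in the HT rats, where 34.6%, 34.3%, 35.8% and 31.1% of all miRNAs did not.

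The make-up of the seed-sharing 5p pool therefore differed by nucleus. In the PVN, miR-181a-5p made up 64.2% ± 1.72 (SD, n = 12) of the reads of the 4 arms, miR-181b-5p 19.1% ± 1.05, miR-181d-5p 15.7% ± 1.998 and miR-181c-5p 1.07% ± 0.102. In the CEA the shares were 74.0% ± 1.501, 21.4% ± 1.24, 4.28% ± 0.730 and 0.380% ± 0.0744 in the same order. The chromosome 19 arms thus took 14.5 to 22.2% of the pool in PVN libraries and 3.01 to 5.75% in CEA libraries, with no overlap. The pool as a whole was 0.607% ± 0.0501 of all reads in the PVN and 0.963% ± 0.195 in the CEA.

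**Figure D3:**
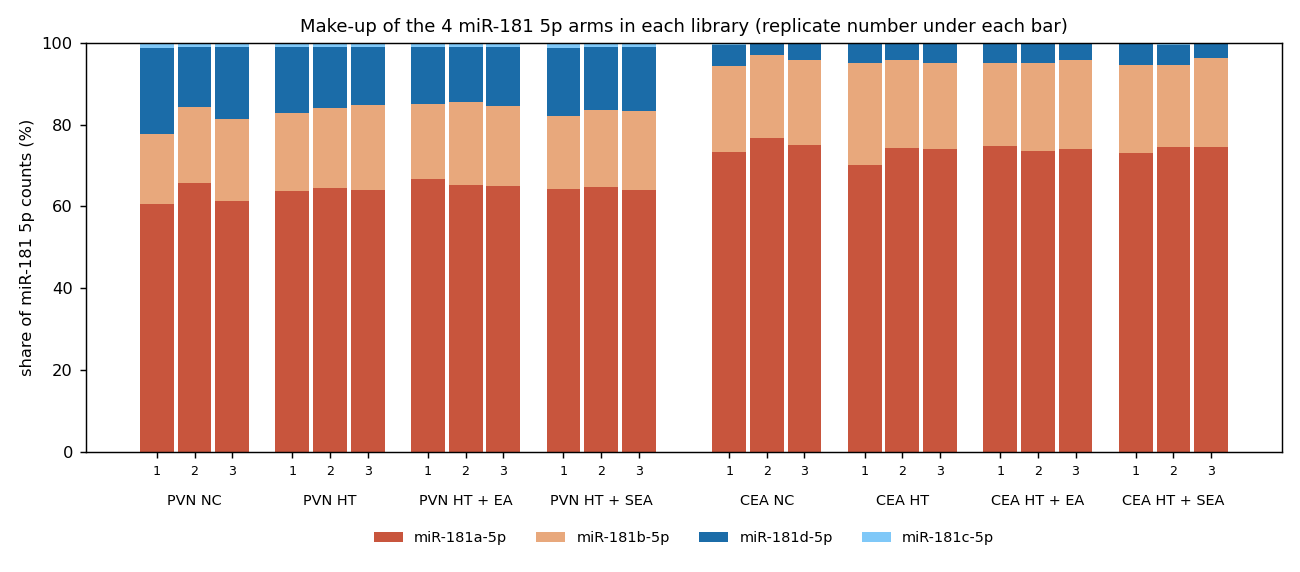
Share of each 5p arm in the reads of the 4 miR-181 5p arms, in percent, with a stacked bar for each of the 24 libraries. The blue part, miR-181d-5p with miR-181c-5p, takes 14.5 to 22.2% of PVN bars and 3.01 to 5.75% of CEA bars.

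The pair that differs by a single base shows the contrast most directly. Reads of miR-181b-5p to reads of miR-181d-5p stood at 1.24 ± 0.176 (0.820 to 1.48) in the PVN and at 5.15 ± 1.03 (3.97 to 7.50) in the CEA. In PVN NC replicate 1 miR-181d-5p had more reads than miR-181b-5p. The 3p arms that share the seed CCAUCGA showed the same division, with a miR-181a-1-3p to miR-181c-3p ratio of 4.12 ± 0.491 in the PVN and 11.1 ± 1.21 in the CEA. How reads matching both miR-181b-5p and miR-181d-5p within an allowed mismatch were assigned is not given in the sources used here.

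**Figure D4:**
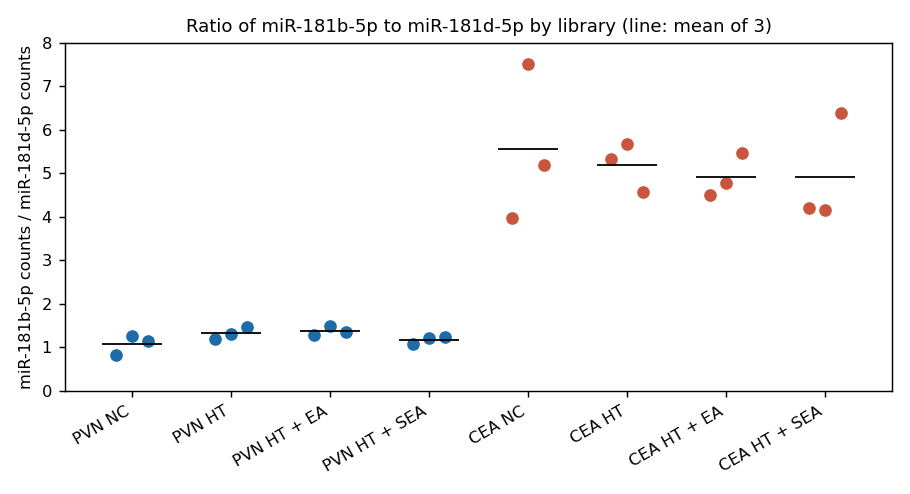
Reads of miR-181b-5p divided by reads of miR-181d-5p, with a point per library and a line at the mean of each group of 3. The 12 PVN libraries lie between 0.820 and 1.48 and the 12 CEA libraries between 3.97 and 7.50.

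Ratios of 5p to 3p arms, taken for all precursors of miR-181a together and for miR-181c, varied less between the nuclei. Reads of miR-181a-5p to the sum of its 3p arms stood at 13.2 ± 1.33 (11.4 to 14.9) in the PVN and 14.0 ± 1.33 (12.2 to 16.4) in the CEA, which overlapped. For miR-181c neither arm was in clear excess, with a 5p to 3p ratio of 0.930 ± 0.112 in the PVN and 0.803 ± 0.118 in the CEA. Of the reads counted for the 3p arms of miR-181a, 97.1% ± 0.591 in the PVN and 97.6% ± 0.382 in the CEA were counted as miR-181a-1-3p, with the limit that their strand at the miR-3570 locus cannot be told. The lowest share, 95.8% in PVN NC replicate 1, had a 95% Clopper-Pearson interval of 94.6 to 96.8%, and the highest, 98.2% in CEA NC replicate 3, one of 97.8 to 98.5%, and both intervals cover counting error only. These shares are of 3p reads, and the share of each precursor in the 5p reads cannot be told apart.

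Of the 3 other rows named miR-181, miR-181b-1-3p, from the chromosome 13 pair, had the direction of its neighbours. It stood at 11.3 ± 1.77 CPM in the PVN and 22.3 ± 4.53 CPM in the CEA (SD, n = 12), without overlap, with a log2 fold change of -1.04 ± 0.107. The other two, miR-181b-2-3p and miR-181d-3p, had 0 to 4 reads in every library, too few for a comparison at this depth.

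Markers of other cell types also differed between the nuclei. The 3 oligodendrocyte miRNAs (miR-219a-5p, miR-219a-2-3p and miR-338-3p) were all counted and at 0 in no library, and their sum was 1795 to 3236 CPM in the PVN and 3904 to 7916 CPM in the CEA. Most of it was miR-219a-2-3p, and the other two overlapped, miR-219a-5p at 40.6 to 108 and 74.8 to 261 CPM and miR-338-3p at 144 to 451 and 370.1 to 798 CPM. The sum of 4 neuronal miRNAs was 103000 to 116900 CPM in the PVN and 137900 to 162600 CPM in the CEA. Most of it was miR-9a-5p, and miR-124-3p of the same list overlapped at 963.7 to 1674 and 914.2 to 2021 CPM. For miR-128-3p the values were 7225 to 13780 in the PVN and 21390 to 32760 CPM in the CEA, without overlap, and for miR-138-5p 310.1 to 614 and 566 to 971 CPM. The sum of 4 endothelial and mural miRNAs was 28020 to 33340 and 34890 to 40090 CPM. Of that list miR-126a-3p did not overlap, at 17250 to 21600 and 22920 to 26280 CPM, and miR-126a-5p, miR-143-3p and miR-145-5p did. The 4 leukocyte miRNAs overlapped, at 215 to 322 and 220 to 329 CPM, as did the 3 red cell miRNAs, at 132 to 241 and 57.9 to 238 CPM. In the other direction, 3 miRNAs of ciliated ependyma and choroid plexus summed to 2269 to 3918 CPM in the PVN and 188 to 1123 CPM in the CEA. That sum was nearly all miR-34c-5p (2251 to 3895 and 187 to 1113 CPM), and miR-449a-5p of the same list overlapped at 1.03 to 2.96 and 0.813 to 3.97 CPM. Each marker was counted in every library. The liver miRNA miR-122-5p ranged from 0.473 to 12.4 CPM, the highest value in a PVN HT library, and 3 muscle miRNAs summed to 19.7 to 109 CPM. The part of any of these cell types in the miR-181 difference was not tested. In dissected tissue, more cells of a type and more of a miRNA in each cell cannot be told apart. The lists hold no miRNA that defines the PVN or the CEA, so the nucleus labels were not checked against one.

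After HT in the PVN, no member was called. A treatment call is an unadjusted p under 0.05 in edgeR's quasi-likelihood test of 3 against 3 libraries. The study used the same threshold with DESeq2, whose member calls are given beside each comparison and differ in 3 of them. The edgeR threshold was passed by 10.9% of the 986 miRNAs tested in PVN HT against PVN NC, with 3.25% at an adjusted p under 0.05. DESeq2, which called 76 of the 986, called no member either. Log2 fold changes of the members ran from -0.24 to 0.17, with standard errors of 0.128 to 0.270. For miR-181a-5p the NC libraries stood at 2844, 3859 and 3890 CPM and the HT libraries at 3953, 4205 and 3615 CPM. NC replicate 1 was the low library, and the groups overlapped. Levels of miR-181b-5p were 803, 1084 and 1276 CPM in the NC and 1185, 1273 and 1168 CPM in the HT libraries, with the same NC library low. Marker sums that did not overlap in this comparison, all lower in HT, were those of ependyma and choroid plexus (3139 to 3918 against 2269 to 2568 CPM), muscle (44.0 to 109 against 20.5 to 30.6 CPM) and red cells (183 to 241 against 154 to 166 CPM). Their part in the members' values was not tested. Without PVN NC replicate 1, the log2 fold changes of miR-181a-5p, miR-181b-5p and miR-181a-1-3p were -0.04, -0.03 and -0.05. With it they were 0.12, 0.17 and 0.11. Without PVN NC replicate 3, miR-181b-5p was called.

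With electroacupuncture in the PVN, the largest difference among the members was that of miR-181a-2-3p, the 3p arm of the chromosome 3 precursor. It stood at 8.31, 7.12 and 6.43 CPM in the HT libraries (66 to 73 reads) and at 10.03, 8.82 and 11.2 CPM in the HT + EA libraries (107 to 166 reads). The lowest HT + EA library was just above the highest HT library, and 15.7% of all miRNAs did not overlap in this comparison. The log2 fold change was 0.49 ± 0.222 (standard error). In PVN HT + EA against PVN HT edgeR called 11.4% of 985 miRNAs, 1.02% at an adjusted p, and of the members 1, this one, and 0. As the counts by treatment were in view, nothing is read from that count. The call was not made by DESeq2, which called no member here, nor without PVN HT replicate 2 or replicate 3, nor without PVN HT + EA replicate 1 or replicate 3. The HT libraries held 8789556 to 11050725 reads and the HT + EA libraries 12134529 to 14828269, and the oligodendrocyte sum was 2517 to 2691 CPM in HT and 2547 to 3236 CPM in HT + EA. The part of either in the result was not tested.

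A second member, miR-181c-3p, did not overlap in that comparison without being called. Its HT libraries stood at 63.7, 60.9 and 65.6 CPM and its HT + EA libraries at 78.2, 68.9 and 76.8 CPM. The log2 fold change was 0.27 ± 0.142. Without PVN HT replicate 3 this member was called in place of miR-181a-2-3p. The other arm of the same hairpin, miR-181c-5p, had a log2 fold change of -0.07 ± 0.145 and overlapped. The remaining 4 members, miR-181a-5p, miR-181b-5p, miR-181d-5p and miR-181a-1-3p, had log2 fold changes from -0.03 to 0.16.

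Needles without current gave no call in the PVN at 8.3% of 1000 miRNAs called in PVN HT + SEA against PVN HT and 0.2% at an adjusted p. This comparison shares the HT libraries with the last. Levels of miR-181c-3p were 73.1, 75.4 and 78.2 CPM in the HT + SEA libraries, each above the 3 HT libraries, with a log2 fold change of 0.27 ± 0.142. DESeq2 called it. Over all miRNAs 10.3% did not overlap here. The ependyma and choroid plexus sum did not overlap either, at 2269 to 2568 CPM in HT and 2725 to 3049 CPM in HT + SEA. Depth was 8789556 to 11050725 reads in HT and 13059380 to 13897929 in HT + SEA. The part of either in the result was not tested. For miR-181a-5p the HT + SEA libraries lay close together at 4080, 3978 and 4003 CPM, within the HT range.

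Between current and no current in the PVN, 7.14% of 994 miRNAs were called, 2.72% at an adjusted p, and no member. Here miR-181d-5p stood at 870, 884 and 899.8 CPM in the HT + EA libraries and at 1053, 945 and 977 CPM in the HT + SEA libraries. The groups did not overlap, as for 11.3% of all miRNAs, and the log2 fold change was -0.17 ± 0.0898. It was called by DESeq2, with 3 other filters on low or predicted miRNAs, with edgeR's robust spread and with the replicate block. The muscle sum (24.5 to 28.8 against 19.7 to 23.1 CPM) and miR-122-5p (1.35 to 2.45 against 0.744 to 1.23 CPM) did not overlap either, both higher in HT + EA, and their part in the result was not tested. The fit drew nearly all of its spread from the other miRNAs, with infinite prior degrees of freedom. For miR-181a-2-3p the log2 fold change was 0.29 ± 0.176, and it was called without PVN HT + EA replicate 2 or without PVN HT + SEA replicate 3.

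**Figure D5:**
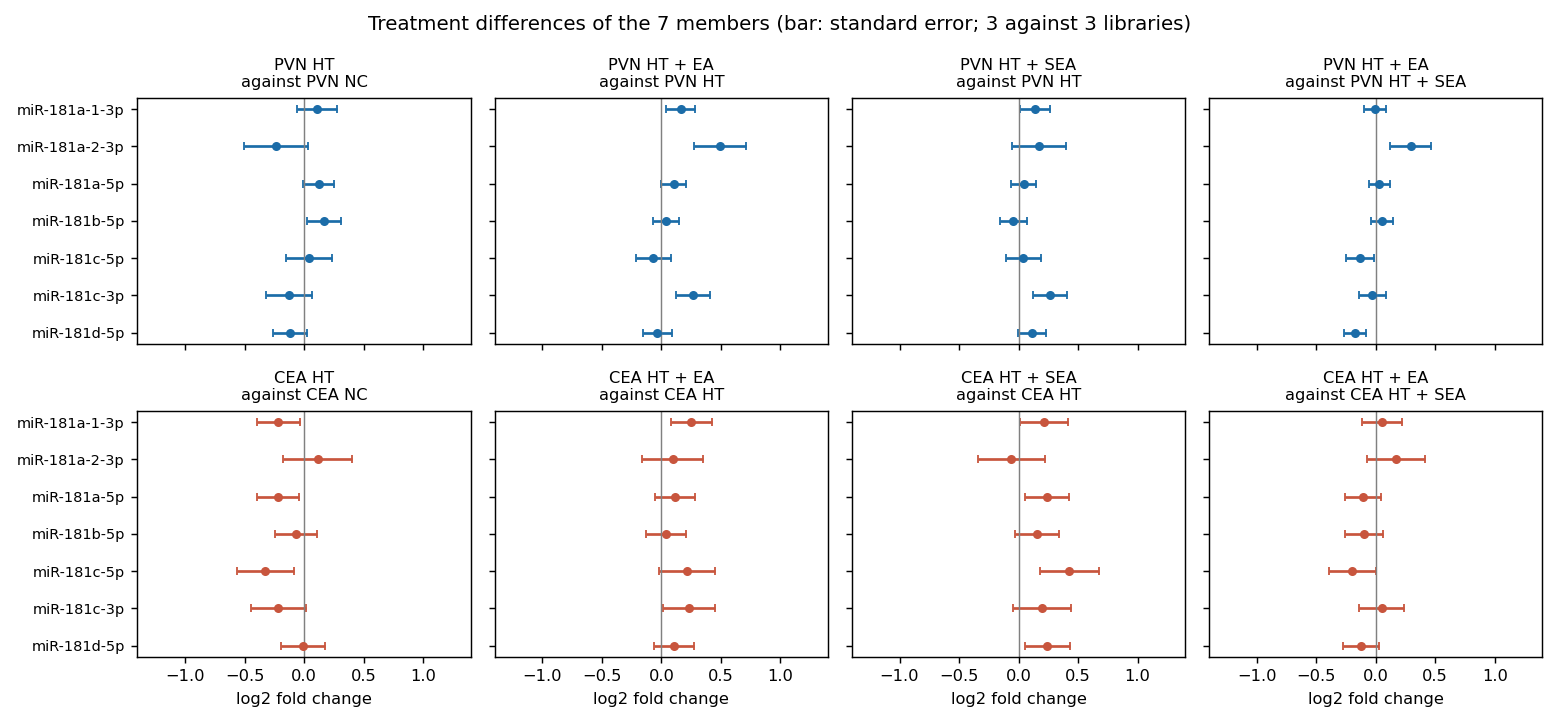
Log2 fold change of each member in the 8 treatment comparisons, with its standard error as a bar, PVN on top in blue and CEA below in red, 3 against 3 libraries in each. All points lie between -0.32 and 0.49, on the axis of the nucleus plot, and the comparisons with HT in 1 nucleus share the HT libraries.

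In the CEA no member was called in any of the 4 treatment comparisons, by edgeR or by DESeq2. At the same unadjusted threshold DESeq2 called fewer miRNAs than edgeR, 7 of 996 after HT, 26 of 1004 for HT + EA and 22 of 999 for HT + SEA against HT. After HT, 3.82% of 996 miRNAs were called and 0.201% at an adjusted p. The members' log2 fold changes ran from -0.32 to 0.11, 6 of them below 0, with a median of -0.22 against -0.02 over all miRNAs. CEA HT replicate 1 stood lowest, and without it the members' log2 fold changes ran from -0.08 to 0.09. Only miR-181a-5p, miR-181c-5p and miR-181a-1-3p then stayed below 0. For miR-181c-5p the HT libraries read 15.7, 36.4 and 35.9 CPM against 39.0, 37.7 and 36.0 CPM in the NC libraries. For miR-181a-5p they read 4037, 7810 and 6682 CPM against 5797, 9401 and 7142 CPM. Without CEA HT replicate 1 the log2 fold change of miR-181c-5p was -0.08, where it was -0.32 with it. That of miR-181a-5p was -0.22 with it and -0.06 without it, and -0.01 without CEA NC replicate 2, its highest library.

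Electroacupuncture in the CEA was followed by log2 fold changes from 0.04 to 0.25 in CEA HT + EA against CEA HT, with standard errors of 0.166 to 0.255. Every member overlapped between the groups, where 9.36% of all miRNAs did not. Of 1004 miRNAs 5.28% were called and 0.0996% at an adjusted p. Scaling by library totals moved the members' values up by a median of 0.12. The HT libraries are those of the last paragraph, with replicate 1 low, and leaving out 1 library took 4 members (miR-181a-5p, miR-181b-5p, miR-181c-5p and miR-181a-2-3p) below 0. The 7 values ran from -0.05 to 0.11 without CEA HT replicate 1.

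With needles alone, CEA HT + SEA against CEA HT, 4.7% of 999 miRNAs were called and 0.4% at an adjusted p. The HT and HT + SEA libraries did not overlap for miR-181c-5p and miR-181d-5p, the 5p arms of chromosome 19, nor for 6.41% of all miRNAs. Levels of miR-181c-5p were 40.1, 45.3 and 38.1 CPM after HT + SEA, with a log2 fold change of 0.43 ± 0.247. Levels of miR-181d-5p were 496.5, 427 and 429 CPM after HT + SEA and 267, 399.8 and 411 CPM after HT, with a log2 fold change of 0.24 ± 0.191. Without CEA HT replicate 1 these log2 fold changes were 0.18 ± 0.231 for miR-181c-5p and 0.14 ± 0.182 for miR-181d-5p. In CEA HT + EA against CEA HT + SEA, 2.24% of 1026 miRNAs were called and 0% at an adjusted p, where DESeq2 gave 8 at the unadjusted and 0 at the adjusted threshold. Members' log2 fold changes ran from -0.20 to 0.17 and all 7 overlapped, where 4.78% of all miRNAs did not. Without CEA HT + SEA replicate 3, whose miR-181a-1-3p level of 698 CPM was the highest of all libraries, miR-181a-1-3p was called.

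The difference between a treatment's effect in the PVN and in the CEA was estimated for HT, HT + EA and HT + SEA. Over the 7 members and the 3 contrasts it ran from -0.43 to 0.34 in log2 units (standard errors 0.209 to 0.395). The largest of these in size, -0.43 ± 0.395, was that of miR-181a-2-3p after HT. All 3 contrasts use CEA HT replicate 1.

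Spread between libraries of a group differed by member and nucleus. In the CEA the SD of miR-181a-5p was 18.3 to 31.4% of the group mean over the 4 treatments, and in the PVN 1.32 to 16.9%. The highest of these, in CEA HT, was 11.01% without replicate 1. Correlations of log2 CPM between members were taken within each nucleus as a description over 12 libraries that share a total. Between miR-181a-5p and miR-181b-5p, r was 0.885 in the PVN, 0.955 in the CEA and 0.974 in the CEA without CEA HT replicate 1. Between the arms of miR-181c it was -0.179, 0.856 and -0.423 in the same order. For miR-181c-5p and miR-181d-5p it was 0.561, 0.811 and 0.392. Across loci, miR-181a-5p and miR-181d-5p gave -0.011, 0.528 and -0.111, and miR-181a-1-3p and miR-181c-3p gave 0.394, 0.891 and 0.886. The high CEA values of the arms of miR-181c, of miR-181c-5p with miR-181d-5p and of miR-181a-5p with miR-181d-5p therefore rested on that library. Those of miR-181a-5p with miR-181b-5p and of miR-181a-1-3p with miR-181c-3p did not. Of the 21 pairs of members, 20 had a higher r in the CEA than in the PVN, and 14 without that library.

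Over the 24 libraries, other known miRNAs of at least 10 CPM followed the members closely, and each of these correlations holds the nucleus difference. Most like miR-181a-5p were miR-27b-3p, miR-3065-3p and miR-338-5p (r = 0.964, 0.963 and 0.963 among 349 candidates). The first gave r = 0.522 within the PVN and 0.924 within the CEA. The last 2 have nearly the same counts, and within the nuclei miR-338-5p gave r = 0.921 in the PVN and 0.952 in the CEA (12 libraries each), and 0.937 in the CEA without CEA HT replicate 1. Most like miR-181b-5p were miR-219a-2-3p, miR-21-5p and miR-219b (r = 0.962, 0.962 and 0.961), of which the first is an oligodendrocyte marker, with 0.759 within the PVN, 0.876 within the CEA and 0.924 there without that library. For miR-21-5p with miR-181b-5p the values were 0.588, 0.934 and 0.932. Counts of miR-219b and miR-219a-2-3p were nearly the same, with means of 2299 and 2307 CPM in the PVN and 4647 and 4655 CPM in the CEA. The 3p arm of miR-338 is on the oligodendrocyte list too. Most like miR-181a-1-3p, after miR-3570, were miR-21-5p (0.962) and miR-27b-3p (0.958). For miR-181a-2-3p they were miR-30a-3p (0.910), miR-25-3p (0.880) and miR-30e-3p (0.855).

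Members of the chromosome 19 pair had other companions. Most like miR-181d-5p were miR-421-3p, miR-344b-3p and miR-672-5p (r = 0.975, 0.970 and 0.967), with 0.396, 0.431 and 0.122 within the PVN and 0.805, 0.764 and 0.691 within the CEA. Without CEA HT replicate 1 the CEA values were 0.489, 0.471 and 0.549. In level, miR-421-3p stood at 31.5 ± 3.07 CPM in the PVN and 14.4 ± 1.78 CPM in the CEA (SD, n = 12). Most like miR-181c-5p were miR-490-5p (0.956), miR-374-3p (0.942) and miR-125b-5p (0.941), of which the first 2 gave 0.575 and 0.706 within the PVN, 0.890 and 0.862 within the CEA, and 0.395 and 0.087 there without that library. Most like miR-181c-3p were miR-582-3p (0.918), miR-125b-5p (0.915) and miR-3588 (0.910), with 0.620, 0.142 and 0.098 within the PVN, 0.840, 0.892 and 0.892 within the CEA, and 0.712, 0.222 and 0.211 there without that library. Counts of miR-3588 and miR-125b-5p were nearly the same. The correlations within nuclei were added after the data were seen, because the nuclei form separate clusters, and all share libraries and depth.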

How the data were processed

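A NEBNext small RNA kit was used for the 24 libraries. What the authors deposited is a table of unnormalized read counts with 1098 rows (703 known and 395 predicted miRNAs). For the sequencing as a whole the methods describe read filtering and alignment to mRatBN7.2, a rat assembly. The submitters' processing notes name HISAT2, featureCounts and human builds (GRCh38, hg38), and the design text names mouse where the samples are labelled rat. How miRNA reads were counted and how reads matching several miRNAs were treated are not given in the sources used here. A further 24 columns of the table, which carry no sample's name as given in the labels, were not used.

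Samples were grouped by nucleus and treatment from their labels. Counts were fitted over all miRNAs with at least 1 count, with edgeR 4.0.16 (limma 3.58.1, R 4.3.3), TMM, glmQLFit and glmQLFTest, on the 6 libraries of each treatment comparison or on all 24 with treatment as covariate. Standard errors are the log2 fold change over the square root of F, with a spread moderated over all miRNAs. Its prior degrees of freedom were 14.73 in the fit over all 24 libraries. They were infinite in PVN HT + EA against PVN HT + SEA and in CEA HT against CEA NC. In PVN HT against PVN NC they were 477.6, and in the other treatment comparisons 23.31 to 57.46. Where infinite, the spread came from the miRNAs together. CPM are counts per 1000000 of the library total, with a count prior of 0.5 on the log2 scale. The fit was tested on simulated data for PVN HT against PVN NC alone, with changes larger than the treatment differences reported here. The fit over all 24 libraries was not simulated. Alternatives, 113 in all, were DESeq2 1.42.0, other scalings and filters, a robust spread, all 4 groups in 1 fit, the 5p arms summed, a replicate block, and leaving out each library. Tables and figures used Python 3.11.15, numpy 2.4.6, pandas 2.3.3, scipy 1.17.1 and matplotlib 3.10.9.

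The members, marker lists, comparisons and tests were chosen with earlier results of these data known. Named are the 7 members, other rows called miR-181, the marker miRNAs and, for each member, the 3 known miRNAs outside the family with the highest Pearson r of log2 CPM. Every group has the same replicate numbers in its labels. The correlation of same-numbered libraries' deviations from their group means exceeded 0.1 for every pair of PVN HT + EA with PVN HT (0.147 to 0.334) and of CEA HT with CEA NC (0.216 to 0.512), and not for every pair of the other treatment comparisons. Between PVN and CEA libraries it did so in NC (0.145 to 0.295), HT + EA (0.187 to 0.226) and HT + SEA (0.174 to 0.651), and not in HT (-0.109 to 0.052). The paper takes brain samples from different animals of 1 batch and does not say what a number marks.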

Additional observations from a re-analysis of the deposited data

How the results depend on the processing

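Of 758 member fold changes under alternatives, 749 moved by less than 1 SD between replicates, 9 moved further, and 0 called values changed sign. That SD can exceed a treatment difference, so staying within it says little about treatment differences. Sign was scored for called values only, and uncalled ones did change it. In PVN HT against PVN NC, miR-181a-5p went from 0.12 to -0.04 without PVN NC replicate 1. In the PVN against the CEA the 7 calls were made under the 9 alternatives that fit the members singly and without each of the 24 libraries, with miR-181d-5p between 1.12 and 1.24 and miR-181a-5p between -0.99 and -0.86. The 4 5p arms summed into 1 row gave -0.74. The treatment calls depended on single settings. In PVN HT + EA against PVN HT, 1 member was called, against 0 with DESeq2, 2 with filterByExpr, 0 at an adjusted p, and 0 to 1 without 1 library. In PVN HT + SEA against PVN HT, 0 were called, against 1 with DESeq2 and 1 with at least 10 counts, and 0 to 0 without 1 library. In PVN HT + EA against PVN HT + SEA, 0 were called, against 1 each with DESeq2, filterByExpr, at least 10 counts, known miRNAs only, the robust spread and the replicate block, in which same-numbered libraries are paired, and 0 to 1 without 1 library. The replicate block changed no other count of calls. Without 1 library, 0 to 1 were called in PVN HT against PVN NC and in CEA HT + EA against CEA HT + SEA, and 0 in the other CEA comparisons. The causes were not tested. With 3 libraries a group and standard errors of 0.089 to 0.287, no treatment difference of a member was called under every setting. The values of miR-181a-2-3p are further limited by 54 to 248 reads a library.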
